A study of Mus musculus with 9 samples.

Results

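The mitochondrially encoded genes are all genes that the deposited table places on the mitochondrial chromosome (MT). There were 37 of them among 54532 genes, namely 13 that encode proteins, 2 that encode ribosomal RNAs (rRNAs) and 22 that encode transfer RNAs (tRNAs). Their RNA was measured by sequencing in brain cortex of male mice aged 8 to 12 weeks, 3 mice each of the inbred strains B6 (C57BL6/J), C3H (C3H/HeJ) and the wild-derived WSB (WSB/EiJ), with no treatment named. Each mouse gave 1 library, so p-values measure the spread between mice of a strain, which is absent where a strain had no reads on a gene. Levels were deposited as FPKM, fragments scaled to gene length and to the depth of the library, and the whole number of reads behind each FPKM value could be recovered.

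Mitochondrial DNA (mtDNA) is a small circle that is copied into long RNA precursors from both strands. The tRNA genes lie between most of the other genes, and cutting the precursor at the tRNAs releases the mRNAs and rRNAs. The proteins are core subunits of complexes I, III, IV and V of the respiratory chain, and the rRNAs and tRNAs serve the ribosome inside the mitochondrion. Copies of mtDNA pieces also sit in the nuclear genome, where they are annotated as pseudogenes.

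Libraries held 16317439 to 21562429 reads on genes. All 8 markers of cortical glutamatergic neurons were found in every strain, with a summed level of 355 to 524 FPKM over the 9 libraries. The 5 blood markers, none of them at 0, summed to 632 to 1010 FPKM in C3H, against 217 to 254 in B6 and 249 to 329 in WSB. Of these 5, 1 had a log2 fold change below 0 in C3H against B6, so the sum is not a shift of all 5. In WSB against C3H all 5 were below 0. The 8 oligodendrocyte markers, none of them at 0, summed to 471 to 674 FPKM in WSB, against 860 to 1084 in B6 and 809 to 1082 in C3H. Striatal markers (138 to 773 FPKM) and choroid plexus markers (97.5 to 841 FPKM) varied between mice and overlapped between strains. C3H replicate 2 stood apart from the other C3H mice, with a chi-square per gene of at least 20.7 against each, beside 7.55 between those. B6 replicate 1 also lay further from the other B6 mice, at 12.2 and 17.5, beside 7.29 between those. The part of these in the differences below was not tested. In bulk tissue, fewer cells of a type and less RNA per cell cannot be told apart.

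A stretch of chromosome 1 held near-identical copies of neighbouring mitochondrial genes. The levels assigned to mitochondrial genes differed between those inside and outside the copied part of mtDNA. On the build GRCm38, 7 annotated pseudogenes on the minus strand of chr1:24611535-24616197 matched parts of MT positions 6390 to 11042. This stretch has 4653 bases, and the 4140 aligned bases held 2 mismatches. The bases between the pseudogenes, which face most of mt-Atp8 and of the tRNA genes there, were not aligned. Chromosome 1 and MT positions faced each other at 2 offsets, the first up to the copy of mt-Nd3, the second from that of mt-Nd4l. The lengths between these copies thus differ, in the part where mt-Tr lies. Inside the copied part of mtDNA lay 11 mitochondrial genes, of which 6 encode proteins (mt-Co2, mt-Atp8, mt-Atp6, mt-Co3, mt-Nd3 and mt-Nd4l) and 5 encode tRNAs. mt-Co1 and mt-Nd4 lay partly inside it, and the other 24 genes outside. How reads that match more than 1 place were handled is not given in the sources used here. The mismatches in the aligned bases are a substitution A1066T in mt-Co1 and T3C in mt-Nd3. Positions are counted from 1 at the 5′ end of the mitochondrial gene, with its base before the position and the copy's base after it. The start of mt-Nd3 (chrMT:9459-9548, plus strand) and that of its copy Gm28438 (chr1:24613030-24613119, minus strand) are shown because the largest strain differences of any mitochondrial mRNA fell on this pair. They are followed by the 2 tRNA genes that flank mt-Nd3, mt-Tg (chrMT:9391-9458) and mt-Tr (chrMT:9808-9875), whose reads differed most between strains. Capitals mark the mismatch, which lies 3 bases past the end of mt-Tg. Sequences are from GENCODE M21 transcripts on GRCm38.
mt-Nd3: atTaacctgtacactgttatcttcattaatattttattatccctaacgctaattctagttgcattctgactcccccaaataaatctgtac
Gm28438: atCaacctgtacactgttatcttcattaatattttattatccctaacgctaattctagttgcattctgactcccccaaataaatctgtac
mt-Tg: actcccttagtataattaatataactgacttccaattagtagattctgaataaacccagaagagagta
mt-Tr: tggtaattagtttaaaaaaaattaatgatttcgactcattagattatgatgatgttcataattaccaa

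The mRNAs outside or only partly in the copied stretch were among the most abundant RNAs of the cortex. Over the 9 libraries, mt-Co1, the catalytic subunit of complex IV, ranked 2 of all genes by mean FPKM (7178), followed by mt-Nd1 (3394) and mt-Cytb (3184). The rRNAs mt-Rnr1 (2870 FPKM) and mt-Rnr2 (2361 FPKM) ranked 5 and 6. The 5 mRNAs outside the stretch had mean levels from 879 to 3394 FPKM and the 6 inside it from 4.65 to 55.9 FPKM. The 2 sets did not overlap. Levels inside the stretch count only reads assigned to the mitochondrial genes, so whether these RNAs were scarce in the cortex was not tested. Reads on the 11 genes inside the stretch made up 0.325% ± 0.013 of all mitochondrial reads in B6, 0.335% ± 0.033 in C3H and 0.475% ± 0.075 in WSB (SD, n = 3).

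**Figure D1:**
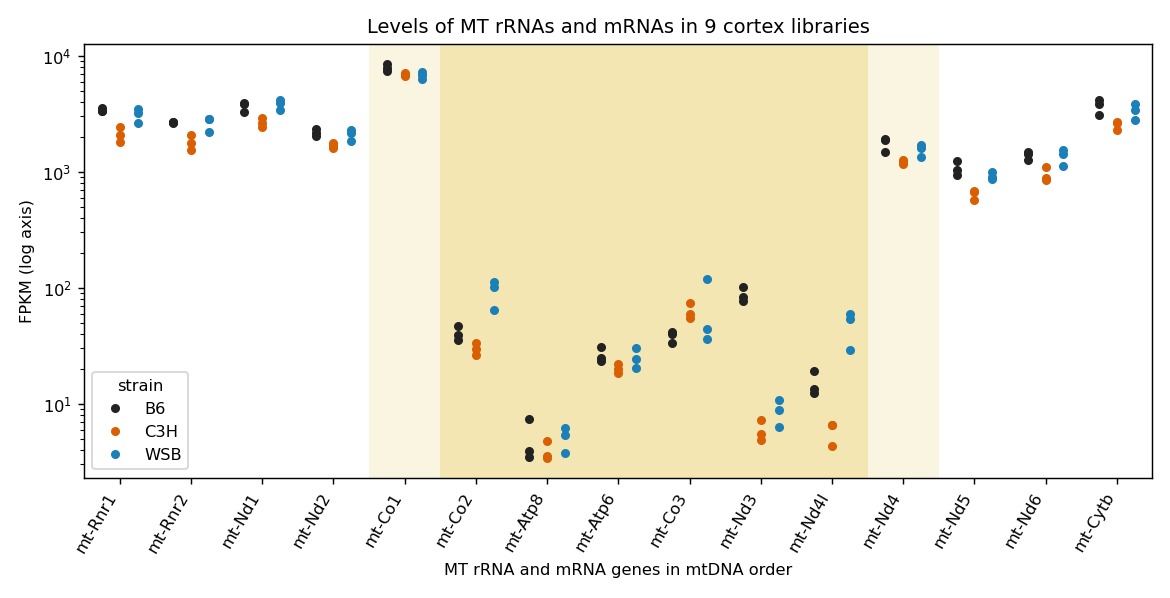
FPKM on a log axis for the 2 rRNA and 13 mRNA genes in mtDNA order, with 1 point per mouse and a colour per strain; dark shading marks genes inside the stretch copied on chromosome 1 and light shading genes partly inside it. The shaded genes between mt-Co1 and mt-Nd4 lie at 3.42 to 119 FPKM, and every other gene lies at 571 FPKM or higher.

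The C3H mice had a smaller share of their gene reads on mitochondrial genes than the B6 or WSB mice, with no overlap. The share was 3.81%, 3.50% and 3.24% in the B6 mice, 2.65%, 2.73% and 2.45% in the C3H mice and 3.54%, 3.30% and 2.99% in the WSB mice, with means of 3.52% ± 0.29, 2.61% ± 0.15 and 3.28% ± 0.27 (SD, n = 3). The C3H mean was lower than that of B6 by 0.912 percentage points and than that of WSB by 0.670 points. Each of these had p = 0.1 in an exact two-sided permutation test, the smallest p that 3 against 3 mice allow, and p = 0.15 after Benjamini-Hochberg adjustment over the 3 strain pairs. WSB was lower than B6 by 0.243 points, with overlapping mice and p = 0.5 (exact permutation, adjusted p = 0.5). By class, the mRNAs took 2.76% of gene reads in B6, 2.12% in C3H and 2.54% in WSB, the rRNAs 0.751%, 0.482% and 0.729%, and the tRNAs 0.0105%, 0.00929% and 0.00820%. With the genes in and partly in the copied stretch left out, which was decided after seeing the data, the means were 2.03% in B6, 1.38% in C3H and 1.97% in WSB.

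**Figure D2:**
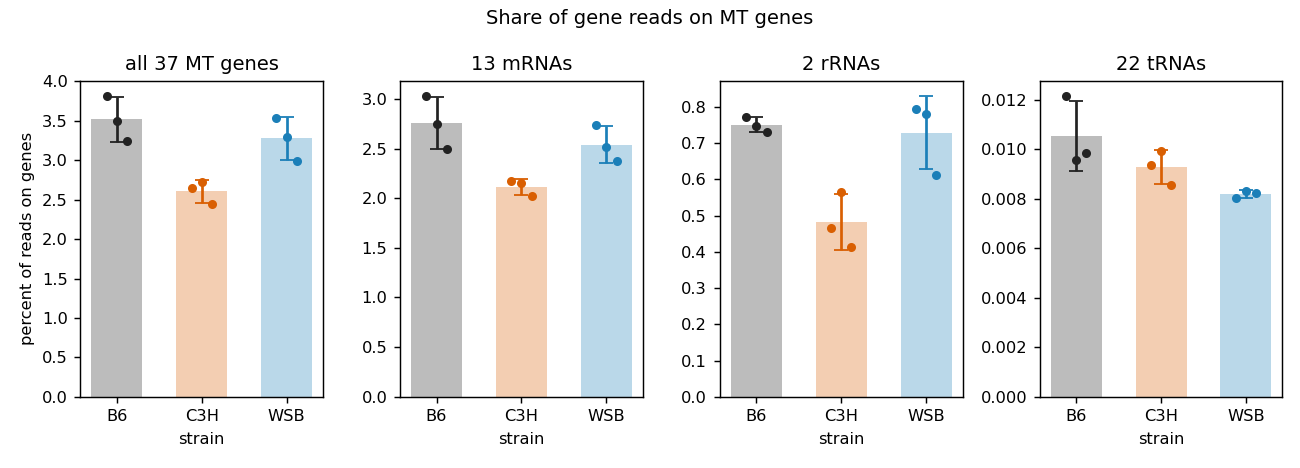
Percent of reads on genes that fell on all 37 mitochondrial genes and on their mRNAs, rRNAs and tRNAs, each on its own axis from 0; points are mice, bars are means and whiskers are SD (n = 3 per strain). For all 37 genes the C3H mice (2.45% to 2.73%) lie below every B6 and WSB mouse.

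The comparison of WSB with B6 asks which of these genes differ between the wild-derived strain and the classical strain. Of the 36 mitochondrial genes tested, 8 passed an adjusted p of 0.05 in limma, a linear model with moderated variances fitted on log2(FPKM + 0.1) across all genes. Of these, 2 were higher in WSB (mt-Co2 and mt-Nd4l) and 6 were lower (mt-Nd3 and the tRNA genes mt-Tg, mt-Tr, mt-Te, mt-Tm and mt-Tl1). Among all 20746 genes tested in this comparison 5.9% passed, 2.81% as higher and 3.09% as lower. By position, 5 of the 8 lay inside the copied stretch, where 10 genes were tested, and 3 outside it, where 24 were tested. The median log2 fold change over the 36 genes was -0.22, against 0.00 over all genes.

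The comparison of C3H with B6 asks the same of the classical strains. There, 7 of 36 mitochondrial genes passed, with mt-Co3 higher in C3H and mt-Nd3, mt-Nd4l, mt-Nd5, mt-Rnr1, mt-Tg and mt-Te lower. Among all 20602 genes 4.64% passed, 2.38% as higher and 2.26% as lower. The median over the 36 genes was -0.49. In addition, all C3H mice lay below all B6 mice for 17 of the 36 genes, 11 of them mRNAs, a pattern that 14.0% of all genes showed in this direction. In WSB against B6 that count was 10 of 36, with 13.1% of all genes.

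WSB against C3H shares no B6 library. It gave 4 calls among 33 mitochondrial genes tested, with mt-Nd4l, mt-Co2 and mt-Nd5 higher in WSB and mt-Th lower. Among all 20607 genes 5.74% passed, 2.61% as higher and 3.13% as lower. All WSB mice lay above all C3H mice for 10 of the 33 genes, against 14.2% of all genes, and these were 8 mRNAs and both rRNAs.

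**Figure D3:**
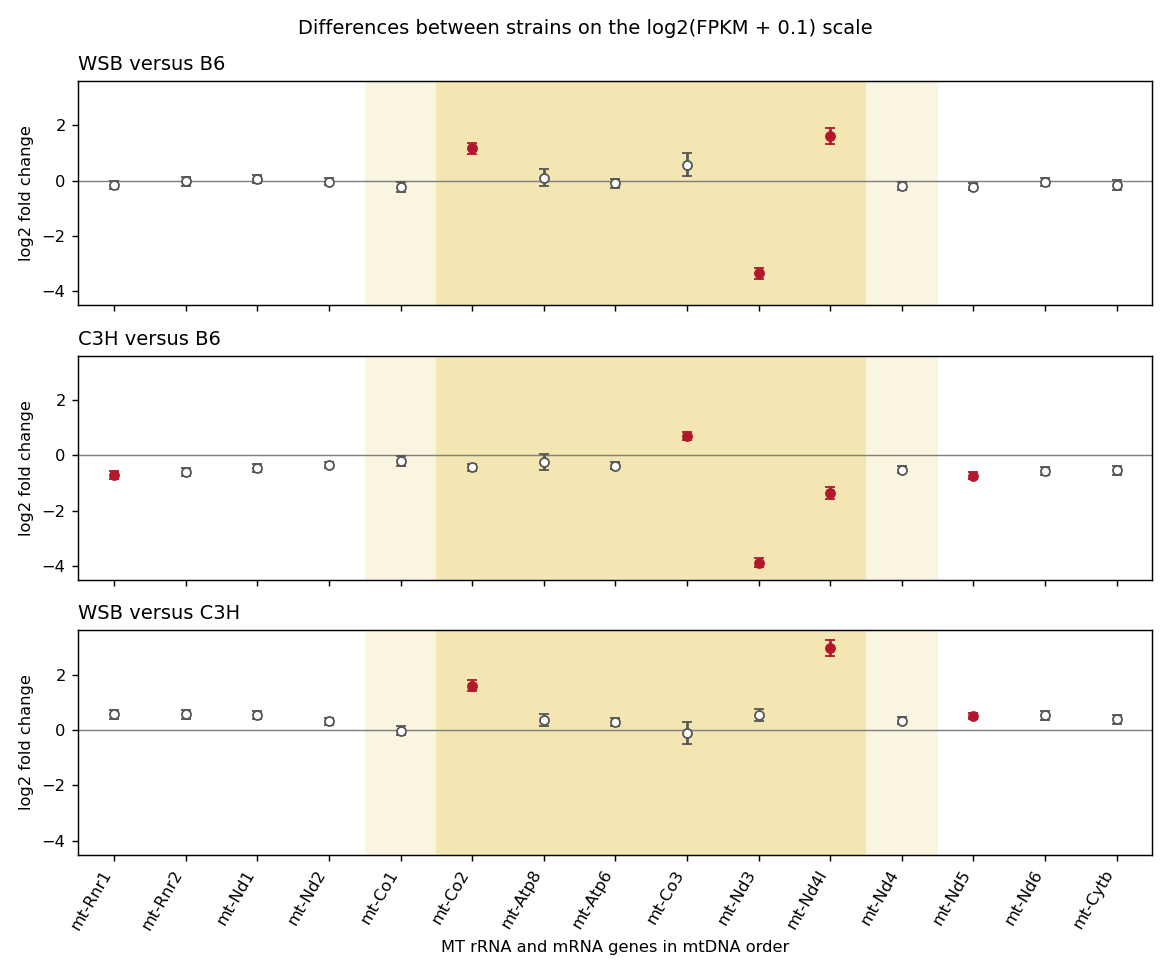
log2 fold change with its standard error (limma, log2(FPKM + 0.1)) for the 2 rRNA and 13 mRNA genes in mtDNA order, 1 panel per comparison; filled red points passed an adjusted p of 0.05 and shading marks the copied stretch as before. The values furthest from 0 are those of mt-Nd3 in both comparisons with B6 (-3.35 and -3.88) and of mt-Nd4l between WSB and C3H (2.97).

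Among the complex I subunits, mt-Nd3 had the strongest difference of any mRNA. It stood at 102, 77.3 and 82.8 FPKM in the B6 mice, at 7.26, 5.49 and 4.89 in the C3H mice and at 8.81, 10.8 and 6.29 in the WSB mice. Every B6 mouse was far above every mouse of the other strains. The log2 fold change was -3.88 ± 0.16 (SE) for C3H and -3.35 ± 0.20 for WSB, or 14.7-fold and 10.2-fold lower (adjusted p = 1.58e-05 and 9.53e-05, limma), and both calls held in all 6 fits that left out 1 mouse.

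The copy of mt-Nd3 on chromosome 1 ran the other way. Gm28438 had 80, 97 and 127 reads in the B6 mice, 817, 721 and 683 in the C3H mice and 958, 931 and 986 in the WSB mice, while mt-Nd3 itself had 634, 543 and 614 reads in B6, 47, 37 and 33 in C3H and 51, 65 and 40 in WSB. Of the reads on the pair, mt-Nd3 received 82.9% to 88.8% in B6 mice, 4.61% to 5.44% in C3H mice and 3.90% to 6.53% in WSB mice. With the reads of each copy added to its mitochondrial gene, which was decided after seeing the data, the difference for mt-Nd3 was 0.20 ± 0.12 in C3H (adjusted p = 0.33, limma) and 0.72 ± 0.10 in WSB (adjusted p = 0.00574), so the direction turned in both. Which of the 2 places a read came from was not tested. The sum holds only reads that were assigned to 1 of the 2 genes. Reads that match both places may be missing from it, here and for the other pairs below.

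mt-Nd4l, another small complex I subunit, differed in opposite directions in the comparisons with B6. Its levels were 19.2, 12.3 and 13.4 FPKM in B6, 6.51, 6.60 and 4.34 in C3H and 59.5, 54.3 and 28.9 in WSB, with no overlap between any of the strains. The log2 fold change was -1.35 ± 0.21 for C3H and 1.62 ± 0.29 for WSB (adjusted p = 0.0137 and 0.0189, limma). WSB was 7.82-fold above C3H, at 2.97 ± 0.29 (adjusted p = 0.00152). Its copy Gm10222, identical over the aligned bases, had 113, 44 and 59 reads in B6, 113, 116 and 98 in C3H and 162, 126 and 104 in WSB. With the copy's reads added, the difference between C3H and B6 was -0.08 ± 0.25 (adjusted p = 0.878), and WSB stayed called as higher than B6 (1.42 ± 0.32, adjusted p = 0.0463) and C3H (73.1 against 25.0 FPKM for the pair, adjusted p = 0.0122).

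The complex I mRNAs outside or partly in the stretch varied less. mt-Nd5 stood at 1248, 1031 and 941 FPKM in B6, 674, 687 and 571 in C3H and 989, 898 and 869 in WSB. It was 1.66-fold lower in C3H than in B6 (-0.73 ± 0.14, adjusted p = 0.0281, limma) and 1.43-fold higher in WSB than in C3H (0.52 ± 0.11, adjusted p = 0.0424). mt-Nd1 stood at 3894, 3839 and 3258 FPKM in B6, 2936, 2653 and 2429 in C3H and 4187, 3916 and 3433 in WSB, and mt-Nd2 at 2319, 2147 and 2024 in B6, 1781, 1687 and 1608 in C3H and 2308, 2172 and 1858 in WSB. Both overlapped between B6 and WSB. mt-Nd4 stood at 1908, 1862 and 1492 FPKM in B6, 1276, 1219.7 and 1161 in C3H and 1595, 1692 and 1345 in WSB. Its copy Gm28439 had 125 to 150 reads in the B6 mice, 85 to 87 in the C3H mice and 86 to 150 in the WSB mice, and was lower in C3H than in B6 (-0.62 ± 0.13, adjusted p = 0.0445, limma). mt-Nd6, the only mRNA gene on the other strand, stood at 1484, 1414 and 1257 FPKM in B6, 1097, 885 and 848 in C3H and 1535, 1419.8 and 1127 in WSB. The C3H mice lay below all B6 mice for mt-Nd1, mt-Nd2, mt-Nd4 and mt-Nd6, and none of these 4 passed, with adjusted p in C3H against B6 from 0.0671 (mt-Nd6) to 0.14 (mt-Nd2).

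Of the complex IV subunits, mt-Co1 did not pass in any comparison, and mt-Co2 and mt-Co3 did. mt-Co1 stood at 8545, 7453 and 7768 FPKM in B6, 7037, 6720.0 and 6799.8 in C3H and 7189.9, 6317 and 6769 in WSB. Its copy Gm29216 had 341 to 471 reads in the B6 mice, 343 to 621 in the C3H mice and 278 to 395 in the WSB mice, with no call. mt-Co2 stood at 39.1, 46.7 and 35.2 FPKM in B6, 33.5, 29.6 and 26.3 in C3H and 111, 101 and 64.6 in WSB. All WSB mice were above all others, at 2.24-fold over B6 (1.17 ± 0.21, adjusted p = 0.0193, limma) and 3.03-fold over C3H (1.60 ± 0.20, adjusted p = 0.00532). Its copy Gm28661, which is identical over the aligned bases, was also higher in WSB, with 1205 to 1831 reads against 589 to 809 in B6 and 474 to 586 in C3H. mt-Co2 received 39.6% to 45.6% of the reads of this pair in every mouse. With the copy added, WSB was higher than B6 by 1.33 ± 0.21 (adjusted p = 0.0119, limma) and than C3H by 1.66 ± 0.20 (adjusted p = 0.00449). The pair summed to 89.9 FPKM in B6, 71.2 in C3H and 230 in WSB. The mRNAs outside the stretch had means of 879 to 3394 FPKM over the 9 libraries. Reads that match both places may be missing from the sum, so whether the RNA of mt-Co2 itself differed was not tested.

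mt-Co3 stood at 41.7, 40.2 and 33.8 FPKM in B6, 73.8, 59.7 and 54.4 in C3H and 43.9, 36.5 and 119 in WSB. All C3H mice were above all B6 mice, at 0.69 ± 0.13 (adjusted p = 0.0285, limma), and its copy Gm28437 was higher in C3H as well (1.23 ± 0.14, adjusted p = 0.00273). WSB replicate 3 stood apart with 1710 reads on mt-Co3, against 573 and 495 in the other WSB mice, while its reads on Gm28437 (553) were below theirs (671 and 652). The same mouse had 1160 reads on Gm10925, the copy of mt-Atp6, against 414 and 446 in the other WSB mice, 415 to 518 in B6 and 314 to 360 in C3H, and Gm10925 had no call.

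**Figure D4:**
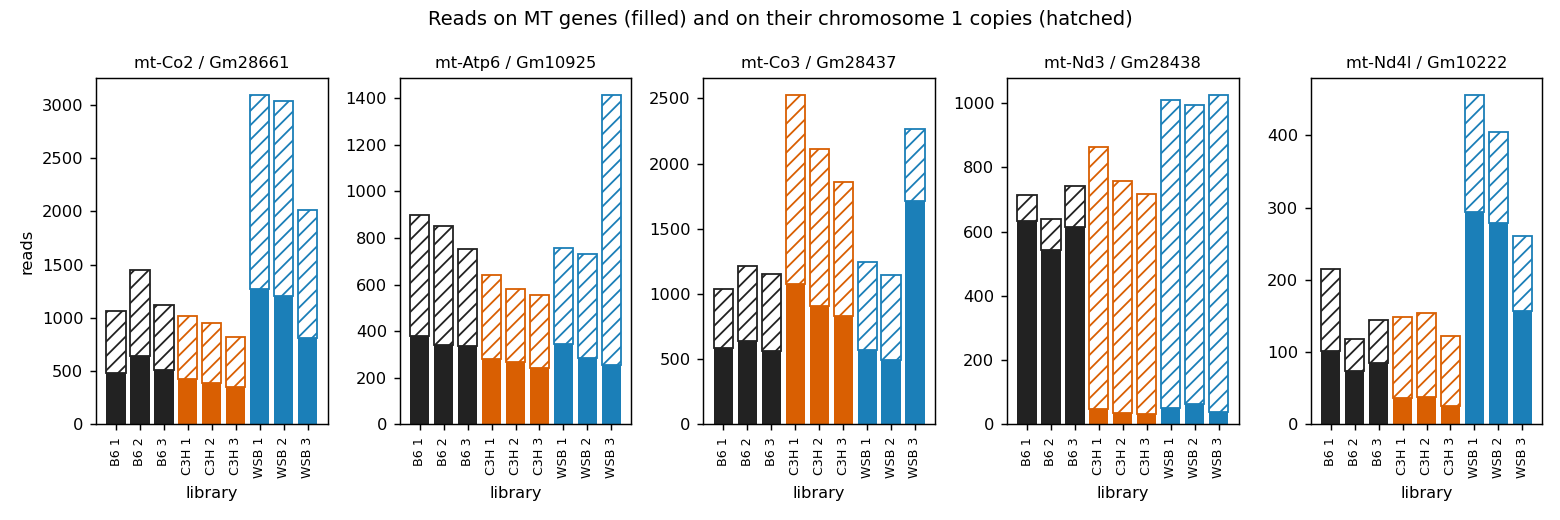
Reads per library on 5 mitochondrial genes (filled) stacked on those of their copies on chromosome 1 (hatched), each panel with its own axis from 0; bars are the 9 mice, coloured by strain. In the mt-Nd3 panel the filled part is 543 to 634 reads in B6 and 33 to 65 in the other strains, while the hatched part runs the other way.

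The complex V subunits and cytochrome b showed no call. mt-Atp6 stood at 31.2, 24.7 and 23.3 FPKM in B6, 22.1, 20.2 and 18.4 in C3H and 30.3, 24.3 and 20.4 in WSB. mt-Atp8 stood at 7.39, 3.88 and 3.45 FPKM in B6, 3.42, 4.81 and 3.54 in C3H and 6.19, 5.38 and 3.76 in WSB. These genes share 43 bases, so reads there cannot be assigned to 1 of them, and mt-Atp8 rested on 13 to 27 reads per mouse. mt-Cytb, the complex III subunit, stood at 4125, 3818 and 3093 FPKM in B6, 2647, 2680.1 and 2269.5 in C3H and 3829.8, 3386 and 2811 in WSB. All C3H mice were below all B6 mice, at -0.53 ± 0.16 (adjusted p = 0.113, limma).

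Both rRNAs were lower in every C3H mouse than in any B6 mouse. mt-Rnr1, of the small ribosomal subunit, stood at 3558, 3337 and 3329 FPKM in B6, 2064, 2431 and 1817 in C3H and 3463, 3212 and 2616 in WSB. It was 1.63-fold lower in C3H than in B6 (-0.71 ± 0.15, adjusted p = 0.0434, limma). mt-Rnr2, of the large subunit, stood at 2672, 2651 and 2669 FPKM in B6, 1765, 2064 and 1528 in C3H and 2831, 2875 and 2194 in WSB, at -0.59 ± 0.14 in C3H (adjusted p = 0.0685). Both were at 0.56 ± 0.17 in WSB against C3H, with adjusted p of 0.107 each.

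Nuclear genes of like base composition were also lower in C3H than in B6 by their median, and the part of base composition in the mitochondrial differences was not tested. The mitochondrial mRNAs have a GC content of 31.9% to 41.1%, against a median of 49.6% for nuclear genes, and nuclear genes with a GC content of 35% to 40% had a median log2 fold change of -0.36 in C3H against B6 (652 genes) and of 0.33 in WSB against C3H (651 genes). In WSB against B6 it was -0.02 (680 genes). For the 5 mRNAs outside the stretch the median in C3H against B6 was -0.53, and -0.12 after the trend of log2 level on GC content had been taken out of every library, with none of the 5 called. mt-Nd5 was then at -0.36 (adjusted p = 0.0901, limma) and mt-Rnr1 at -0.30 (adjusted p = 0.168). In C3H against B6, mt-Nd3, mt-Nd4l, mt-Co3 and mt-Tg stayed called, and mt-Te did not. In WSB against C3H, mt-Nd5 was at 0.16 with the trend removed and lost its call (adjusted p = 0.424, limma). There, mt-Co2, mt-Nd4l and mt-Th stayed called, and mt-Tm was called as well.

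The tRNA genes carried few reads, and a read on so short a gene need not come from a finished tRNA. Of the 22, 13 had at least 10 reads in every mouse of a strain or were called. The other 9 had 0 to 20 reads per mouse, and mt-Td had none in any. mt-Tp, the proline tRNA gene, was far above the rest at 909 ± 44.9 FPKM in B6, 901 ± 30.0 in C3H and 773 ± 17.6 in WSB (SD, n = 3), and took 53.6% to 67.8% of all tRNA reads in a mouse. Its WSB mice lay below all others (-0.23 ± 0.09 against B6, adjusted p = 0.2, limma).

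mt-Tg, the glycine tRNA gene that ends at the start of mt-Nd3, was assigned reads in B6 alone. It had 26, 39 and 25 reads there, and 0 reads in all 3 C3H and all 3 WSB mice. Set against a floor of 3 reads per library, the level assigned to mt-Tg was at least 9.68-fold lower in C3H. In WSB it was at least 8.80-fold lower. The fit called it in C3H and in WSB (adjusted p = 1.31e-06 and 1.65e-06, limma). There, every C3H and WSB value was the 0.1 added before the log, without spread, and the gene entered the tests through the B6 mice alone. These p-values thus do not measure the spread between C3H or WSB mice and add nothing to the floor-based ratios. Intervals and floors cover counting error only. mt-Tr, the arginine tRNA gene on the other side of mt-Nd3, had 22, 5 and 8 reads in B6, 1, 0 and 2 in C3H and 1, 0 and 0 in WSB. The ratio of B6 to WSB was 30.8 (95% exact interval 5.17 to 1249) and that of B6 to C3H 11.3 (3.55 to 57.3), and it was called in WSB (adjusted p = 0.0255) and not in C3H (adjusted p = 0.0876). For both mt-Tg and mt-Tr, the facing bases on chromosome 1 lie between the annotated pseudogenes, so no copy's reads could be added. For mt-Nd3 between them, 82.9% to 88.8% of the reads on the pair with Gm28438 went to mt-Nd3 in B6 mice. That share was 4.61% to 5.44% in C3H mice and 3.90% to 6.53% in WSB mice. Whether the RNA of mt-Tg or mt-Tr itself differed between strains was thus not tested. The other 3 tRNA genes inside the stretch, mt-Ts1, mt-Td and mt-Tk, had 0 to 2 reads per mouse.

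Outside the stretch, mt-Te, the glutamate tRNA gene, stood at 44.5, 37.3 and 31.3 FPKM in B6, 11.7, 12.0 and 20.2 in C3H and 16.6, 19.3 and 18.2 in WSB. All B6 mice were above all others, and it fell by 1.40 ± 0.22 on the log2 scale in C3H and by 1.05 ± 0.13 in WSB (adjusted p = 0.0145 and 0.00434, limma). mt-Tm, the methionine tRNA gene, stood at 32.4, 14.4 and 17.0 FPKM in B6, 10.1, 23.9 and 20.9 in C3H and 5.23, 8.37 and 6.35 in WSB, at -1.60 ± 0.31 in WSB against B6 (adjusted p = 0.0264). Every WSB mouse was below every mouse of the other strains for this gene. mt-Tl1, a leucine tRNA gene, had 47, 38 and 25 reads in B6, 17, 41 and 19 in C3H and 11, 11 and 15 in WSB, at -1.35 ± 0.27 in WSB against B6 (adjusted p = 0.0305). mt-Th, the histidine tRNA gene, stood at 28.1, 30.0 and 20.8 FPKM in C3H and 11.7, 13.8 and 16.3 in WSB, 1.87-fold lower in WSB (-0.91 ± 0.17, adjusted p = 0.0247). mt-Tn, mt-Tc, mt-Ty, mt-Tw, mt-Ts2 and mt-Tl2 had mean levels of 17.5 to 186 FPKM by strain and no call.

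**Figure D5:**
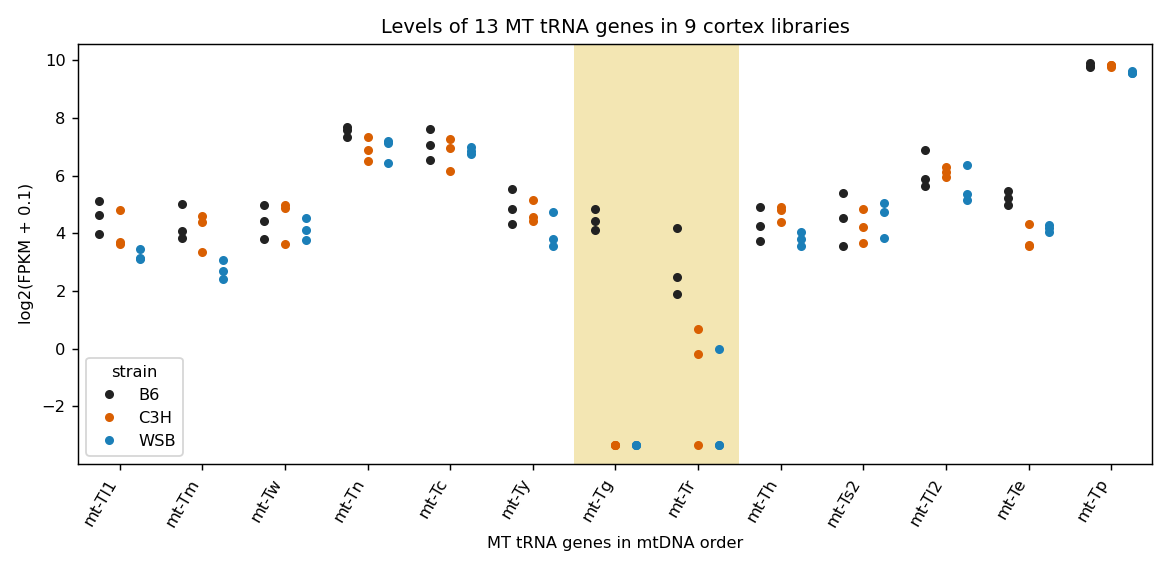
log2(FPKM + 0.1) for the 13 tRNA genes with at least 10 reads in every mouse of a strain or a call, in mtDNA order, with 1 point per mouse; shading marks genes inside the copied stretch. Points at the bottom are mice with 0 reads, which for mt-Tg are all C3H and WSB mice.

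Many of these calls were lost when 1 mouse was left out, with fold changes that kept their direction. In WSB against B6 there were 4 calls without B6 replicate 3, WSB replicate 1 or WSB replicate 2, 5 without B6 replicate 1 or 2, and 6 without WSB replicate 3. mt-Nd3, mt-Tg and mt-Te passed in all 6 of them, mt-Tm in 3, mt-Co2 and mt-Nd4l in 2, and mt-Tr and mt-Tl1 in 1. mt-Co2 was lost without B6 replicate 1 or 3 or WSB replicate 1 or 2 (1.01 to 1.41, adjusted p up to 0.0745, limma), and mt-Nd4l without B6 replicate 2 or 3 or WSB replicate 1 or 2 (1.42 to 1.94, adjusted p up to 0.0782). mt-Tm was lost without B6 replicate 3 or WSB replicate 1 or 3 (-1.83 to -1.25, adjusted p up to 0.087). mt-Tr passed only without WSB replicate 1 (-6.18 to -4.42, up to 0.0844), and mt-Tl1 only without B6 replicate 3 (-1.65 to -1.07, up to 0.108).

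In C3H against B6 there were 3 calls without B6 replicate 1, B6 replicate 2 or C3H replicate 1, and 5 to 8 without each other mouse, 8 of them without C3H replicate 2. mt-Nd3, mt-Tg and mt-Nd4l passed in all 6 fits. mt-Te was lost without B6 replicate 1 or 2 or C3H replicate 1 (-1.65 to -1.26, adjusted p up to 0.0669, limma), and mt-Co3 without any 1 of the B6 mice or C3H replicate 1 (0.57 to 0.79, up to 0.0883). mt-Nd5 was lost without B6 replicate 1 or 2 or C3H replicate 1 or 3 (-0.82 to -0.62, up to 0.117), and mt-Rnr1 passed only without C3H replicate 2 (-0.82 to -0.60, up to 0.169). In WSB against C3H there were 2 calls without WSB replicate 1 or 2, and 3 to 5 without each other mouse. mt-Co2 and mt-Nd4l passed in all 6, mt-Th was lost without C3H replicate 1 or WSB replicate 1 or 2 (-1.07 to -0.79, adjusted p up to 0.113), and mt-Nd5 passed only without C3H replicate 2 (0.43 to 0.56, up to 0.159).

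Since the mitochondrial RNAs are cut from shared precursors, the comparison was repeated after each library was centred on the mean of its 13 mitochondrial mRNAs. Then 8 genes were called in WSB against B6, 10 in C3H against B6 and 13 in WSB against C3H. The share of all genes that passed after centring was not recorded, so the centred counts have no background beside them. The shift was taken from every gene, nuclear ones too, before the adjustment over all genes. Where strains differ in the mRNA mean, nuclear genes are moved by as much and can pass in large numbers. That can lower the adjusted p of mitochondrial genes, so centred calls cannot be set against the uncentred ones. In C3H against B6, mt-Nd5 and mt-Rnr1 were no longer called, while mt-Co3 (1.38 ± 0.16) and the tRNA genes mt-Ti, mt-Th, mt-Tl2 and mt-Tp were higher relative to the mRNAs, and mt-Nd3 (-3.19 ± 0.17), mt-Tg, mt-Tr, mt-Nd4l and mt-Te lower. In WSB against C3H, mt-Nd4l (2.33 ± 0.21) and mt-Co2 (0.97 ± 0.15) were higher relative to the mRNAs, and mt-Co1 (-0.65 ± 0.20) and 10 tRNA genes lower. Of these tRNA genes, mt-Ti had 0, 2 and 3 reads in the WSB mice and mt-Tq 0, 0 and 7. Their fold changes thus depend on the 0.1 added before the log. The mean over the 13 mRNAs includes the 6 inside the copied stretch. Centred on the 5 mRNAs outside it, which was decided after seeing the data, 8 genes were called in WSB against B6, 8 in C3H against B6 and 9 in WSB against C3H. mt-Ti (adjusted p = 0.0544, limma) and mt-Tl2 (0.138) then lost their call in C3H against B6, and mt-Co1 (-0.48, adjusted p = 0.0882), mt-Tl2 (0.0565), mt-Tn (0.0942) and mt-Tw (0.101) in WSB against C3H.

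Few nuclear genes that work with these RNAs passed the test, at shares near or below those of all genes. Of the 40 genes tested for copying, transcribing and processing mtDNA and its RNA, 2 were called in WSB against B6, 1 in C3H against B6 and 1 in WSB against C3H, beside 5.9%, 4.64% and 5.74% of all genes. Tfb2m, a factor that starts mitochondrial transcription, fell in WSB from 5.50 to 3.64 FPKM (-0.58 ± 0.09, adjusted p = 0.013, limma). Trub2, a pseudouridine synthase of mitochondrial RNA, rose in WSB from 4.02 to 7.15 FPKM (0.81 ± 0.10, adjusted p = 0.00463). Ptcd3, a protein of the mitochondrial ribosome, was lower in C3H (3.99 FPKM) than in B6 (6.17 FPKM, adjusted p = 0.0302) and WSB (6.52 FPKM, adjusted p = 0.0165). Of 71 nuclear genes for subunits of complexes I, III, IV and V, 1 was called, Atp5j2 of complex V, which was higher in C3H than in B6 (0.38 ± 0.07, adjusted p = 0.0285), and none in WSB against B6 or C3H. Log2 fold changes below 0 were found for 11 of the 71 in C3H against B6, for 40 in WSB against B6 and for 64 in WSB against C3H. The 71 genes had median log2 fold changes of 0.19 in C3H against B6, -0.02 in WSB against B6 and -0.19 in WSB against C3H. In the same order, medians were -0.004, 0.002 and 0.009 over all genes tested. For the 5 mitochondrial mRNAs outside the stretch they were -0.53, -0.04 and 0.52, and -0.12, -0.03 and 0.10 with the GC trend removed. Medians of the 71 genes with that trend removed were not taken, and the part of base composition was not tested.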

How the data were processed

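Per the labels and the study's methods, paired-end reads from cortex RNA (total RNA in the labels, mRNA in the methods) were trimmed with Cutadapt, aligned with STAR and counted on genes with HTSeq; versions, build and strand setting are not given in the sources used here. The authors deposited FPKM values per gene and mouse. FPKM times gene length was a whole multiple of 1 step per library for 100% of values (tolerance 0.01 reads), which gave the reads. Each FPKM denominator was proportional to the library's median-ratio size factor. Strains were compared 2 at a time with limma 3.58.1 in R 4.3.3 by two-sided tests on log2(FPKM + 0.1), with lmFit and then eBayes with its trend option. Genes entered a comparison if their mean reached 0.1 FPKM, with Benjamini-Hochberg adjustment over all genes tested and a threshold of 0.05; fold changes of low genes are understated by the pseudocount. Members, gene lists and tests were chosen with earlier results of these data known. All mitochondrial mRNAs and rRNAs were described, as were tRNA genes with at least 10 reads in every mouse of a strain or a call, at most 4 called genes per nuclear list, and copies with over 50 reads. All 37 genes had the coordinates of GENCODE M21 (GRCm38). Copies were sought with blastn 2.17.0 (at least 90% identity over 100 bases) among GENCODE M21 transcripts, in place of the whole genome. GC content came from the longest transcript. The script for the test was checked on simulated data. Same-numbered mice did not deviate together (r from -0.157 to 0.037), so the numbers do not pair mice. Chi-square values per gene of at least 7.29 between mice of a strain showed no pair of duplicate libraries. Alternatives were other pseudocounts, filters, scalings, weights, trend corrections, a replicate block and leaving out each mouse. Adding reads of copies, centring on the mRNAs outside the copied stretch and 2 other shares of reads were chosen after seeing the data.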

Additional observations from a re-analysis of the deposited data

How the results depend on the processing

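The count of called mitochondrial genes depended on the variance model, on centring and on which mice entered. The share of all genes called was recorded for the main fit alone, so the counts of the alternatives have no background beside them. Centring shifts nuclear genes as well, so the counts after it cannot be set against those before it. Without a trend in the variances (eBayes) it was 3 in WSB against B6, 2 in C3H against B6 and 2 in WSB against C3H, and 6 in C3H against B6 and 8 in WSB against C3H after centring. With voom weights it was 5, 13 and 10 in the same order of comparisons, and 4 in WSB against B6 after centring. With the GC trend removed it was 8 in WSB against B6, 4 in C3H against B6 and 4 in WSB against C3H. Leaving out 1 mouse gave 4 to 6 calls in WSB against B6, 3 to 8 in C3H against B6 and 2 to 5 in WSB against C3H, and after centring 7 to 9, 7 to 10 and 10 to 14. Leaving out 1 mouse gave a share of gene reads lower than that of B6 by 0.0952 to 0.382 percentage points in WSB and by 0.765 to 1.05 points in C3H, and differences of 0.539 to 0.812 points between WSB and C3H.

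With the replicate block, in which same-numbered mice are paired although the numbers do not pair them, 6, 5 and 3 genes were called as deposited and 7, 10 and 13 after centring, and the share of reads gave p = 0.25 in each comparison by exact sign-flip permutation, the smallest 3 pairs allow. Adding the reads of each chromosome 1 copy, tried after seeing the data, reversed mt-Nd3 to 0.72 in WSB and 0.20 in C3H against B6. Among the 19 other alternatives, no called gene changed direction, and mt-Nd3 and mt-Tg against B6 and mt-Co2 and mt-Nd4l between WSB and C3H kept their call in all of them. The cause of the other changes was not tested.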

Other observations

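Outside chromosome 1, 9 other nuclear genes held copies of mitochondrial genes of at least 90% identity, none above 97.6%. Of these, Gm13340 and Gm13341 on chromosome 2 had over 50 reads in a library. Gm13340, a copy of mt-Co1, had 176 to 236 reads in the B6 mice, 86 to 151 in the C3H mice and 86 to 222 in the WSB mice. Gm13341, a copy of mt-Co2, had 68 to 103 reads in the B6 mice, 17 to 56 in the C3H mice and 3 to 27 in the WSB mice, so all B6 mice were above all others. It did not pass in WSB against B6 (-2.50 ± 0.68, adjusted p = 0.0848, limma) or in C3H against B6 (-1.28 ± 0.39, adjusted p = 0.113).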
